A study of Mus musculus with 6 samples.

Results

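Rab GTPases are the small GTPases that direct membrane vesicles between compartments, and their transcripts were examined in resident peritoneal macrophages with and without a deletion of the gene for the transcription factor Gata6. The members were all probe sets annotated with a single symbol made of Rab, a number and at most a letter. This rule took 132 of the 45101 probe sets on the array, for 59 of the 18193 genes with a symbol of their own. It uses symbols and no measured value, but the family was chosen with earlier results of these data known. The arrays compared were 3 Gata6-KO pools, from mice with a conditional, floxed deletion of Gata6, and 3 Gata6-WT pools from wild type mice. Mice of both groups were 7 weeks old and described as sex-matched, each pool combined lavage cells of 2 to 3 animals, and all cells were sorted as CD11b-high and MHCII-low or negative. Which Cre line was used, in which cells it acts and which exons it removes is not given in the sources used here. A lower signal in such a bulk sample can come from fewer cells of a type or from less RNA per cell, and these cannot be told apart.

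A Rab protein is switched on by an exchange factor that loads GTP and switched off by a GTPase activating protein. In its active form it binds effectors such as tethers, motor adaptors and membrane fusion factors. Newly made Rabs are prenylated so that they can sit in membranes, and GDI proteins extract them again after use. Each Rab tends to mark its own compartment: Rab1 and Rab2 the path between endoplasmic reticulum and Golgi, Rab5 the early endosome, Rab11 the recycling endosome, Rab7 the late endosome and lysosome, and Rab3 and Rab27 granules and other vesicles ready for exocytosis. Macrophages rely on this traffic for phagocytosis, for recycling of receptors and for secretion.

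Of the 3 Gata6 probe sets, 1443081_at had signals of 184, 173 and 183 in Gata6-KO pools 1, 2 and 3, against 337, 449 and 483 in the Gata6-WT pools (limma adjusted p = 0.00426). Probe set 1425464_at had 4452, 3040 and 2998 in Gata6-KO, against 6433, 5405 and 7279 in Gata6-WT (adjusted p = 0.0113, and 0.0668 in a fit without the mean-variance trend). Probe set 1425463_at did not pass the test, with a log2 difference of -0.01 (adjusted p = 0.982), and where these probe sets lie relative to the deleted part is not known here. Median signals were 79.5 to 88.3 over the 6 arrays. Arrays of the same genotype correlated at r = 0.964 to 0.972 and arrays of different genotype at 0.930 to 0.951. The pools numbered 1 stood apart from the others in sex-linked genes in both genotypes: Xist had signals of 102 in Gata6-KO pool 1 and 113 in Gata6-WT pool 1, against 11158 to 13749 in the other 4 pools. Eif2s3y went the opposite way, with 3494 in Gata6-KO pool 1 and 3674 in Gata6-WT pool 1, against 1.22 to 15.3 in the other 4 pools. The labels do not give the sex of each pool. All 8 listed macrophage markers passed the signal filter, of which Adgre1, Cd68 and Fcgr1 were called lower and Mertk higher, and their summed signal was 191859 to 205314 in Gata6-KO pools and 209307 to 246544 in Gata6-WT pools. No listed marker of T cells, eosinophils or mesothelial cells passed the filter, so none was tested. The tested markers of B cells (2), dendritic cells (1) and platelets (2) were not called, but the monocyte marker Ccr2 was higher in Gata6-KO and Vcan lower; their sums were 1752 to 9659 in Gata6-KO pools and 400 to 604 in Gata6-WT pools, with the highest value in Gata6-KO pool 1. The part of these markers in the Rab results was not tested.

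Rab27a and Rab3d, which serve regulated secretion, had much lower signals in Gata6-KO, while the family's median difference was close to 0. Rab44 was also called lower, but its Gata6-KO signals lay below the filter's cutoff, so the size of its fall is uncertain. Of the 132 probe sets, 102 had a mean log2(signal + 16) above the filter at 5.99, which corresponds to a constant signal of 47.5, and were tested. They stand for 49 genes, and 30 probe sets lay below it. By limma with an adjusted p under 0.05, 4 Rab probe sets passed as higher and 9 as lower in Gata6-KO, together 12.7% of those tested. The background over all 27022 tested probe sets was 10.8% in either direction, 5.12% higher and 5.67% lower, so the Rab share lies near it. The median log2 difference, Gata6-KO minus Gata6-WT, was 0.01 over Rab probe sets and -0.01 over all tested probe sets, and the Rab values ran from -2.40 to 1.19. In 80 of the 102 the difference was smaller than 0.5 on the log2 scale in either direction. The groups did not overlap in 39 Rab probe sets (38.2%), with Gata6-KO above in 18 and below in 21, against a background of 31% (14.8% above and 16.3% below).

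Counted by gene, with the tested probe set of highest mean signal standing for each, Rab31 and Rab11a were higher and Rab27a, Rab3d, Rab44, Rab34, Rab19 and Rab2a were lower. These 8 of 49 genes (16.3%) compare with 13.1% of all 12511 genes, of which 5.61% were higher and 7.46% lower. Rab7 and Rab12 were called only at a second probe set, so that 10 Rab genes had a call at any probe set, and none had calls in both directions. With the mean of a gene's tested probe sets in place of the highest, Rab11a (log2 0.22, adjusted p = 0.303) and Rab2a (log2 -0.07, adjusted p = 0.794) were not called, Rab7 (0.38, 0.0324) and Rab12 (-0.80, 0.0351) were, and the other 6 genes kept their calls. Called lower by at least 2-fold were 7 Rab probe sets, those of Rab27a and Rab3d (2 each), Rab44, Rab12 and Rab19. A single one, of Rab31, was called higher by as much. No share over all tested probe sets is given for this limit, so these counts describe the Rabs alone. Without Gata6-KO pool 1, 2 or 3 the number of called Rab probe sets was 8, 7 and 6. Without Gata6-WT pool 1, 2 or 3 it was 10, 6 and 11. The totals over all probe sets were smaller in these fits too. Only 4 of the 13 calls, at Rab27a, Rab3d (both probe sets) and Rab44, were kept in each of the 6 fits that left out 1 array.

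**Figure D1:**
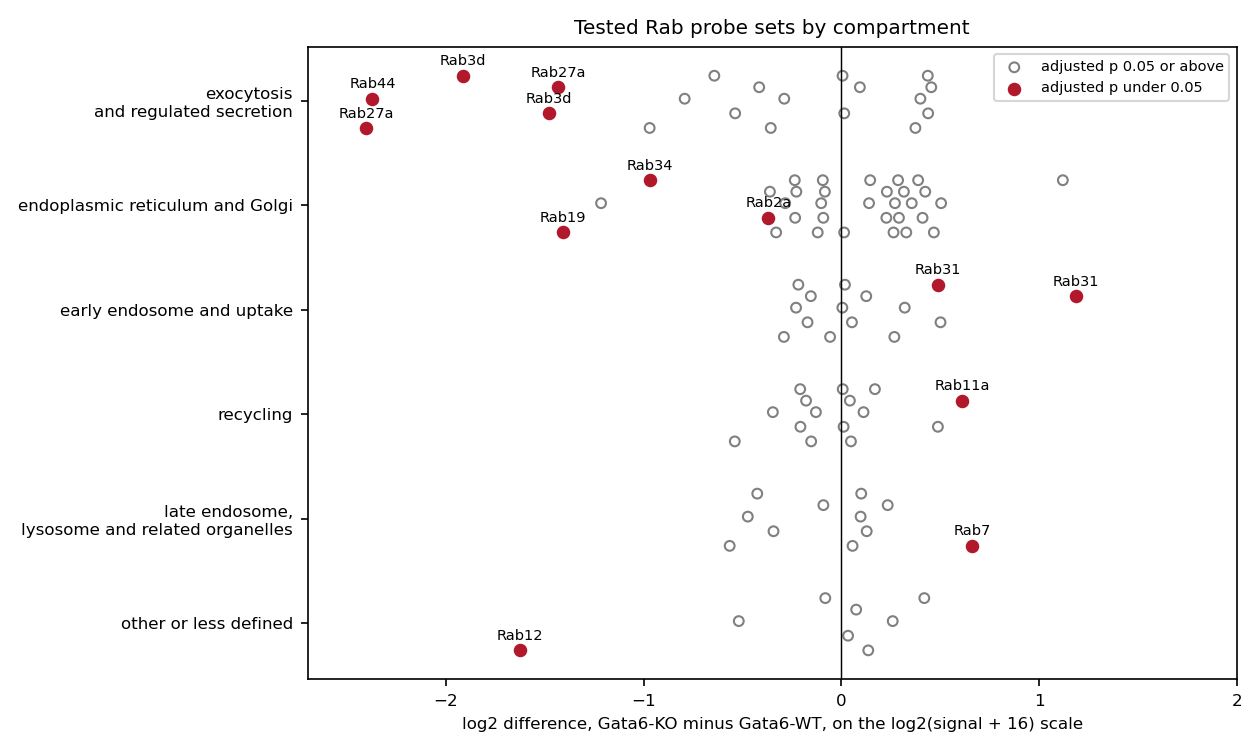
Log2 difference, Gata6-KO minus Gata6-WT, of each of the 102 tested Rab probe sets (horizontal axis), in rows by the compartment each gene is known for, with filled points at an adjusted p under 0.05; vertical offsets within a row only separate points. The 5 called probe sets of the exocytosis row lie between -2.40 and -1.43, while the early endosome, recycling and late endosome rows hold the 4 probe sets called higher.

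Rabs of exocytosis and regulated secretion held the largest falls. Of 20 tested probe sets 5 were lower and none higher, against a background of 5.67% lower, with a median log2 difference of -0.39. By gene 3 of 10 were lower, against a background of 7.46% (median -0.32, against -0.04 over all genes). The 5 probe sets belong to these 3 genes, Rab27a, Rab3d and Rab44, and are not independent. Of these, Rab44 was tested through its Gata6-WT signals only. The group was also drawn with earlier results of these data known, so its share describes the group and is not a test. Rab27a, which docks secretory granules and lysosome-related organelles at the plasma membrane, had signals of 1015, 1008 and 939 in Gata6-KO pools 1, 2 and 3, against 6008, 5256 and 4676 in the Gata6-WT pools (1429123_at). The Gata6-KO pools were close to each other and all far below the lowest Gata6-WT pool. They kept 18.6% of the Gata6-WT mean, a 5.29-fold lower signal on the log2(signal + 16) scale (log2 -2.40 ± 0.12 SE, 95% confidence interval -2.68 to -2.13, limma adjusted p = 1.05e-05). With 1 array left out the log2 difference stayed between -2.49 and -2.31.

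The other Rab27a probe sets had far lower signals and pointed the same way where they were tested. Probe set 1425284_a_at had 85.5, 109 and 86.7 in Gata6-KO, against 430, 365 and 135 in Gata6-WT (log2 -1.43 ± 0.37 SE, limma adjusted p = 0.0394). Its groups did not overlap, but Gata6-WT pool 3 lay near the Gata6-KO values, and leaving out any of the other 5 arrays ended the call (adjusted p 0.0752 to 0.137). Probe set 1425285_a_at had 45.5, 90.3 and 47.7 in Gata6-KO, against 155, 117 and 53.9 in Gata6-WT, with overlapping groups and no call (log2 -0.64, adjusted p = 0.362). The remaining one, 1454438_at, was below the filter, with 56.6, 69.8 and 63.2 in Gata6-KO and 41.4, 64.7 and 2.24 in Gata6-WT.

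Rab3d, a Rab of secretory granules in exocrine and mast cells, was lower at 2 of its 4 tested probe sets. Probe set 1418890_a_at had signals of 348, 243 and 346 in Gata6-KO, against 855, 676 and 1212 in Gata6-WT, and the log2 difference was -1.48 ± 0.23 (SE, limma adjusted p = 0.00335). Probe set 1418891_a_at had 370, 152 and 243 in Gata6-KO, against 858, 847 and 1175 in Gata6-WT (log2 -1.91 ± 0.28 SE, adjusted p = 0.00242). At both, every Gata6-KO pool was below every Gata6-WT pool, and Gata6-KO pool 2 was the lowest. The groups were also apart at 1449259_at without passing the test (253, 99.6 and 249.8 in Gata6-KO, 371, 403 and 367 in Gata6-WT, adjusted p = 0.0786), and they overlapped at 1449260_at (log2 -0.54, adjusted p = 0.487).

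Rab44, a large Rab with an EF-hand domain that takes part in granule release of mouse mast cells, had its single probe set near the detection range. Its signals were 11.3, 15.9 and 17.9 in Gata6-KO pools, all below the filter's cutoff, against 108, 105 and 257 in Gata6-WT pools. The log2 difference was -2.37 ± 0.40 (SE, 95% confidence interval -3.28 to -1.46, limma adjusted p = 0.00551), and it stayed between -2.57 and -1.99 with 1 array left out. This probe set was thus tested through its Gata6-WT signals, and with no filter it was still called. MAS5 signals this low are imprecise, so the size of the fall is uncertain.

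Rab27a, Rab3d and Rab44 are all known from granule-bearing cells, so markers of such cells were set beside them. Of 5 mast cell markers on the array, Kit, Tpsb2 and Mcpt4 were below the filter. Their means were higher in Gata6-KO, with overlapping groups: 50.7 against 44.1 in Gata6-WT for Kit, 71.7 against 19.2 for Tpsb2, and 21.2 against 18.8 for Mcpt4. Cpa3, the mast cell carboxypeptidase, had 125, 145 and 206 in Gata6-KO pools, against 250.3, 284 and 305 in Gata6-WT pools (log2 -0.78, limma adjusted p = 0.0509). Cma1, a mast cell chymase, had 125, 26.1 and 87.1 in Gata6-KO, against 157, 185 and 252 in Gata6-WT (log2 -1.31, adjusted p = 0.0829). Neither was called, though in both the Gata6-KO pools lay below the Gata6-WT pools. The 5 mast cell signals summed to 325 to 489 in Gata6-KO pools and 489 to 606 in Gata6-WT pools. Of the 4 neutrophil markers, only S100a8 was called lower (488 ± 186 in Gata6-KO, 1111 ± 332 in Gata6-WT, SD, n = 3 each, limma adjusted p = 0.0295). Ngp was not called (log2 -0.11, adjusted p = 0.881). S100a9 and Camp were below the filter, with higher means in Gata6-KO (17.9 against 4.11, and 27.0 against 20.5) and overlapping groups. The summed signal, mostly S100a8, was 390 to 792 in Gata6-KO pools and 955 to 1613 in Gata6-WT pools. The part of these cells in the lower Rab signals was not tested.

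**Figure D2:**
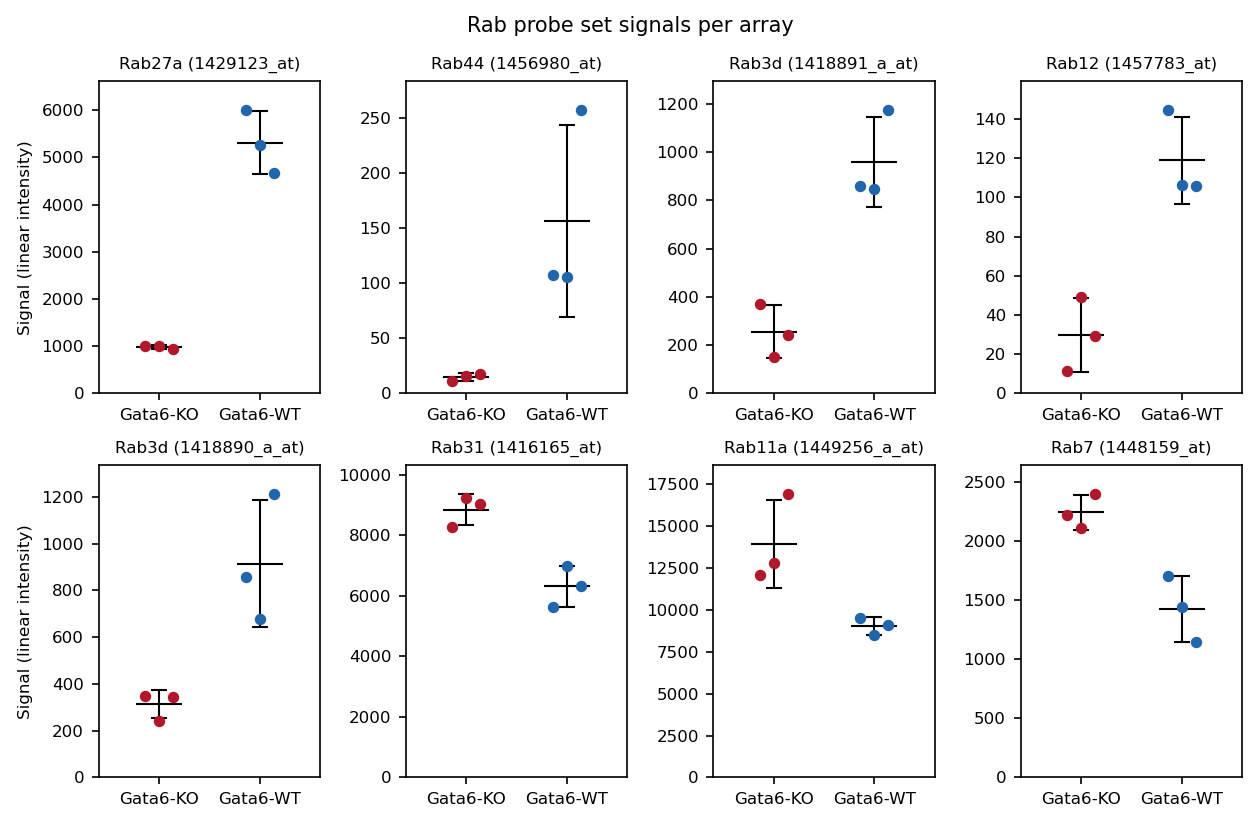
MAS5 signal (linear intensity, vertical axis from 0) of the 8 called Rab probe sets with the smallest p in each Gata6-KO pool (red, left) and Gata6-WT pool (blue, right), with horizontal lines for the mean and bars for the SD of 3 arrays. Rab27a shows the widest gap, with Gata6-KO pools between 939 and 1015 and Gata6-WT pools between 4676 and 6008, while Rab31, Rab11a and Rab7 have the Gata6-KO pools above.

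The closest relatives of these genes did not pass the test. Rab27b, which shares effectors with Rab27a, had 163 ± 58.4 in Gata6-KO and 205 ± 22.1 in Gata6-WT at 1443764_x_at (SD, n = 3 each; log2 -0.36, 95% confidence interval -0.98 to 0.26, limma adjusted p = 0.472). Rab3a, the synaptic vesicle Rab, had 592 ± 145 in Gata6-KO and 779 ± 36.4 in Gata6-WT at 1459980_x_at (log2 -0.42, adjusted p = 0.201), where the groups did not overlap. Probe sets whose identifiers carry an x or an s can also match transcripts of other genes. Rab3b and Rab3c were below the filter at every probe set.

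Among the Rabs that carry Golgi-derived vesicles to the cell surface, none was called. Rab8a had 2454 ± 53.1 in Gata6-KO and 2444 ± 93.2 in Gata6-WT (SD, n = 3 each), a log2 difference of 0.01 with a 95% confidence interval of -0.22 to 0.23. Rab8b, its close relative, had 19389, 18970 and 17618 in Gata6-KO, against 15208, 15564 and 12546 in Gata6-WT, which left the groups apart but outside the threshold (log2 0.37 ± 0.11 SE, limma adjusted p = 0.0663). Rab10 had 1956, 1936 and 2100 in Gata6-KO, against 1687, 1389 and 1306 in Gata6-WT at 1422664_at, just outside it (log2 0.45, adjusted p = 0.0501); its other probe sets gave 0.44 (adjusted p = 0.106) and 0.01 (0.947). Rab13, a Rab of junctions and surface delivery, had a log2 difference of 0.40 (adjusted p = 0.282), and Rab37, known from insulin and mast cell granules, had -0.29 (0.714).

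Since Gata6 binds GATA motifs, the promoter windows of the called Rabs were searched for AGATAA and AGATAG and likewise for TGATAA and TGATAG, on both strands, and for the E-box CACGTG. The windows are the 300 bases from 250 before to 50 after a RefSeq transcript start of GRCm38.p6, and 48 of the 59 Rab genes, 8 of the 10 with a call, had at least 1. The sequences below are those of the called Rab genes with the largest falls that had a window, read 5′ to 3′ along the gene's strand, in lower case with the motif in capitals. For Rab27a the windows lie at chr9:73044560-73044859 and chr9:73063898-73064197 (plus strand), and for Rab3d at chr9:21918134-21918433 (minus strand).
Rab27a, upstream start: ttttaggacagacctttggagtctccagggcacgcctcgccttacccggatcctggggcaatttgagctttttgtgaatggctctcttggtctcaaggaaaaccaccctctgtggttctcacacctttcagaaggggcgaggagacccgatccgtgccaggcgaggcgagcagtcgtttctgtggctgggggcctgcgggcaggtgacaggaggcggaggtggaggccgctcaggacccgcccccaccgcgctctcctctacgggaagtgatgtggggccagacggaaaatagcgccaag
Rab27a, downstream start: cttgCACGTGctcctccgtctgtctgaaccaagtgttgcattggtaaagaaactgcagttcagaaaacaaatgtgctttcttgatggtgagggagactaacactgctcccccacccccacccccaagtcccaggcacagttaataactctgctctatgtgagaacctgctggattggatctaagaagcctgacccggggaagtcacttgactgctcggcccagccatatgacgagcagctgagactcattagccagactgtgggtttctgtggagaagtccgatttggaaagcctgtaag
Rab3d: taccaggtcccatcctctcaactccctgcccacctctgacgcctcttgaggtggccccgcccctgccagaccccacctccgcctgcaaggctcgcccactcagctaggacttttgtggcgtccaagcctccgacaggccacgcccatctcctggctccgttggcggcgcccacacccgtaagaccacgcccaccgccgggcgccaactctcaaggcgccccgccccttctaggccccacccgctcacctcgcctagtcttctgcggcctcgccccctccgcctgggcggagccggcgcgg
None of these 3 windows held a GATA motif as searched. The downstream Rab27a window held the E-box at its base 5, counted from its 5′ end. Over all 60 Rab windows, 14 held a GATA motif (23.3%) and 6 the E-box (10%), against 29.8% and 7.15% of all 32851 windows. Of the 11 windows of called Rab genes, 2 held a GATA motif (18.2%), in Rab34 and Rab7, and 1 the E-box (9.09%).

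Rabs of the endoplasmic reticulum and Golgi held 3 lower and no higher probe sets among 33 tested, with a median log2 difference of 0.14. This was 9.09%, against a background of 10.8% in either direction and 5.67% lower. By gene 3 of 14 were lower (21.4%), against a background of 7.46% lower, with a median of 0.21. Rab19, a little studied Golgi-associated Rab, had signals of 199, 174 and 66.4 in Gata6-KO pools 1, 2 and 3, against 502, 349 and 319 in Gata6-WT pools (log2 -1.41 ± 0.35 SE, limma adjusted p = 0.0317). The groups did not overlap, with Gata6-KO pool 3 the lowest, and the call was lost without any one of the Gata6-WT pools (adjusted p 0.0540 to 0.0953). Rab34, which acts at the Golgi and in lysosome positioning, had 86.8, 91.6 and 83.0 in Gata6-KO, against 147, 190 and 229 in Gata6-WT at 1416591_at (log2 -0.97 ± 0.24 SE, adjusted p = 0.0304). The Gata6-KO pools lay within a narrow range below all Gata6-WT pools. The second Rab34 probe set, 1416590_a_at, had 97.8, 74.2 and 31.3 in Gata6-KO, against 109.6, 189 and 220 in Gata6-WT, with a larger but less certain difference (log2 -1.22 ± 0.38 SE, adjusted p = 0.077). The call at 1416591_at was kept only in the fit that left out Gata6-WT pool 1, with adjusted p-values of 0.0684 to 0.0984 in the other 5.

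Rab34 is shown as the called gene of this group with a GATA motif in a window, chr11:78188177-78188476 on the plus strand of GRCm38.p6. The capitals mark AGATAA of the minus strand, which starts at base 45 of the window and reads TTATCT along the gene's strand.
Rab34: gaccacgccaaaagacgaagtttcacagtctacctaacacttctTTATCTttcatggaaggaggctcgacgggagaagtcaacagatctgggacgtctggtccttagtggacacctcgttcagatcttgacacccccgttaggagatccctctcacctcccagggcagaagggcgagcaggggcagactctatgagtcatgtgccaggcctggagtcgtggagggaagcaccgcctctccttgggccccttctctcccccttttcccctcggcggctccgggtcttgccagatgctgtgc
Its other RefSeq window held no such motif, and a match of 6 letters does not show that a factor binds there.

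Rab2a, needed for traffic between the endoplasmic reticulum and the Golgi, was measured by 7 tested probe sets that did not move together. At 1418622_at the signals were 4378, 4292 and 4342 in Gata6-KO, against 5641, 5802 and 5390 in Gata6-WT, a small difference with little spread (log2 -0.37 ± 0.09 SE, limma adjusted p = 0.035). Probe set 1419945_s_at had 3553, 3887 and 3704 in Gata6-KO, against 5099, 4551 and 4685 in Gata6-WT, just outside the threshold (log2 -0.36, adjusted p = 0.0507). At 1418621_at the order was turned, with 3929, 3983 and 3739 in Gata6-KO, against 3676, 2752 and 2986 in Gata6-WT (log2 0.32, adjusted p = 0.151). Over the 7 probe sets the log2 differences ran from -0.37 to 0.50. The single call was kept only without Gata6-WT pool 3 among the fits that left out 1 array (adjusted p 0.0693 to 0.130 in the others). The 5 probe sets of its relative Rab2b lay between -0.28 and 0.36, and none was called.

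The remaining Rabs of this route were not called. Rab1a, which is needed for export from the endoplasmic reticulum, had 7423, 7593 and 7404 in Gata6-KO, against 6119, 6336 and 6207 in Gata6-WT at 1448210_at (log2 0.26, limma adjusted p = 0.104), and 0.27 (adjusted p = 0.223) at 1416082_at. Rab1b gave -0.12 (adjusted p = 0.636). The 3 probe sets of Rab6a, a Golgi Rab, gave 0.29, 0.23 and 0.14. Rab43, a Golgi Rab related to Rab19, had 1028, 967 and 926 in Gata6-KO, against 647, 616 and 855 in Gata6-WT (log2 0.47, adjusted p = 0.0852). Rab18, of the endoplasmic reticulum and lipid droplets, gave 0.33 (adjusted p = 0.202) and 1.12 (0.24), the second with Gata6-WT pool 3 at 170.5 against 1157 and 759.5 in Gata6-WT pools 1 and 2. Rab33b, which acts at the Golgi and in autophagy, gave -0.33 (adjusted p = 0.244), and Rab36, a relative of Rab34, gave 0.15 and -0.23.

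Rab31 was the only Rab of early endosomes and uptake with a call, and both of its probe sets were higher in Gata6-KO. The group held 2 calls in 15 tested probe sets (13.3%, near the background of 10.8% in either direction). Rab31, also known as Rab22b, serves transport between the trans-Golgi network and endosomes and is found on phagosomes of macrophages. Probe set 1416165_at had signals of 8254, 9238 and 9034 in Gata6-KO, against 5634, 6973 and 6315 in Gata6-WT, a 1.40-fold higher signal with no overlap (log2 0.49 ± 0.11 SE, limma adjusted p = 0.0219). Probe set 1431691_a_at had 571, 398 and 577 in Gata6-KO, against 247, 328 and 119 in Gata6-WT (log2 1.19 ± 0.32 SE, adjusted p = 0.0431). The Gata6-WT pools spread more widely there, which left a less certain size. The first call was lost without Gata6-KO pool 2, Gata6-KO pool 3 or Gata6-WT pool 1 (adjusted p 0.0511 to 0.0895), and the second was kept only without Gata6-WT pool 2. The Rab31 window, chr17:65772703-65773002 on the minus strand of GRCm38.p6, is shown as that of the Rab gene called higher at both probe sets, and it held none of the motifs searched.
Rab31: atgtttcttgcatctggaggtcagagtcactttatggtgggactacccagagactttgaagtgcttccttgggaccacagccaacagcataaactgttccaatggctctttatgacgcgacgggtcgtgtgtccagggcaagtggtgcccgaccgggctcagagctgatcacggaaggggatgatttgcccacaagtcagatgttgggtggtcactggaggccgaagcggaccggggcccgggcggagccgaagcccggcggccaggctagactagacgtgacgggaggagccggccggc

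The core Rabs of the early endosome were not called. Rab5a, the main Rab of homotypic early endosome fusion, had 5372 ± 117 in Gata6-KO and 5352 ± 912 in Gata6-WT (SD, n = 3 each; log2 0.02, 95% confidence interval -0.27 to 0.31). Rab5c gave a log2 difference of 0.13 (confidence interval -0.17 to 0.42), and the Rab5b probe sets gave 0.27 and -0.17. These intervals do not reach a 2-fold difference for Rab5a and Rab5c. Rab20, a Rab of phagosome maturation in macrophages, had 297, 490 and 413 in Gata6-KO, against 265, 275 and 277 in Gata6-WT, apart but not called (log2 0.50 ± 0.20 SE, limma adjusted p = 0.15). Rab21, an integrin traffic Rab, gave 0.32 (adjusted p = 0.11) and -0.23 (0.554). The 4 probe sets of Rab22a, the closest relative of Rab31, lay between -0.29 and 0.05, and Rab24, linked to autophagy, gave -0.15 and -0.22.

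Among recycling Rabs, Rab11a was called higher at 1 of its 2 probe sets. That was the group's 1 call in 15 tested probe sets (6.67%, against a background of 10.8% in either direction). Rab11a directs cargo from recycling endosomes back to the surface. Probe set 1449256_a_at had signals of 12100, 12803 and 16940 in Gata6-KO, against 9521, 8489 and 9104 in Gata6-WT, with Gata6-KO pool 3 well above the rest (log2 0.61 ± 0.14 SE, limma adjusted p = 0.0197). The second, 1434549_at, had 3179, 3680 and 4175 in Gata6-KO, against 4059, 4248 and 4110 in Gata6-WT, and was not called (log2 -0.18, adjusted p = 0.40). The direction for Rab11a therefore rested on a single probe set, whose call was lost without Gata6-WT pool 2 (adjusted p = 0.0782). Its relative Rab11b gave 0.01, -0.54 (adjusted p = 0.138) and -0.35 with no call. Rab14, of endosome to Golgi and early phagosome traffic, had 7 tested probe sets between -0.21 and 0.49, none of them called. The surface recycling Rabs Rab35 and Rab4b gave 0.11 and -0.15, and Rab15 gave 0.17.

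Late endosome and lysosome Rabs held 1 call in 11 tested probe sets (9.09%, near the background of 10.8% in either direction). Rab7, which drives fusion of late endosomes and phagosomes with lysosomes, had signals of 2222, 2110 and 2400 in Gata6-KO, against 1703, 1439 and 1145 in Gata6-WT at 1448159_at (log2 0.66 ± 0.15 SE, limma adjusted p = 0.0221). Its probe set of higher signal, 1415734_at, had 7375, 7350 and 7810 in Gata6-KO, against 6426, 6735 and 7933 in Gata6-WT, with overlap and no call (log2 0.10, adjusted p = 0.627). Here too the call of the first was not stable: it was kept only without Gata6-WT pool 1 or 3 (adjusted p 0.0540 to 0.0779 in the other fits). Rab7b, a lysosomal Rab of monocytic cells, gave 0.23, -0.47 (adjusted p = 0.0996) and -0.43 at its 3 probe sets. Rab9, which returns mannose 6-phosphate receptors to the Golgi, gave 0.06 (95% confidence interval -0.21 to 0.33). Rab32, a Rab of lysosome-related organelles, had 9677 ± 942 in Gata6-KO and 10292 ± 697 in Gata6-WT (SD, n = 3 each; log2 -0.09, confidence interval -0.34 to 0.16). Its relatives Rab38 and Rab29 gave -0.56 (adjusted p = 0.194) and 0.13 for the probe sets of Rab38, and 0.10 for Rab29. Rab42, whose place is less defined, gave -0.34.

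Rab12 held the only call in 8 tested probe sets of Rabs of other or less defined place (12.5%, against a background of 10.8%). It is known for sending transferrin receptor to degradation and as a substrate of the kinase LRRK2. At 1457783_at it had signals of 11.5, 49.0 and 29.3 in Gata6-KO, against 145, 106 and 106 in Gata6-WT (log2 -1.63 ± 0.39 SE, limma adjusted p = 0.0267). At 1427992_a_at, whose signals were far higher, it had 851 ± 62.1 in Gata6-KO and 848 ± 226 in Gata6-WT (SD, n = 3 each; log2 0.03, adjusted p = 0.936). The Gata6-KO signals at 1457783_at lie around or below the filter's cutoff, so this probe set was tested through its Gata6-WT signals, and with no filter it was not called (adjusted p = 0.0586). The call was also kept only without Gata6-KO pool 2 (adjusted p 0.0577 to 0.101 in the other fits). The cilium Rabs Rab23 and Rab28 were not called, with log2 differences of 0.26 and -0.52 for Rab23 and -0.08 and 0.42 for Rab28, and Rab40c gave 0.08 and 0.14.

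**Figure D3:**
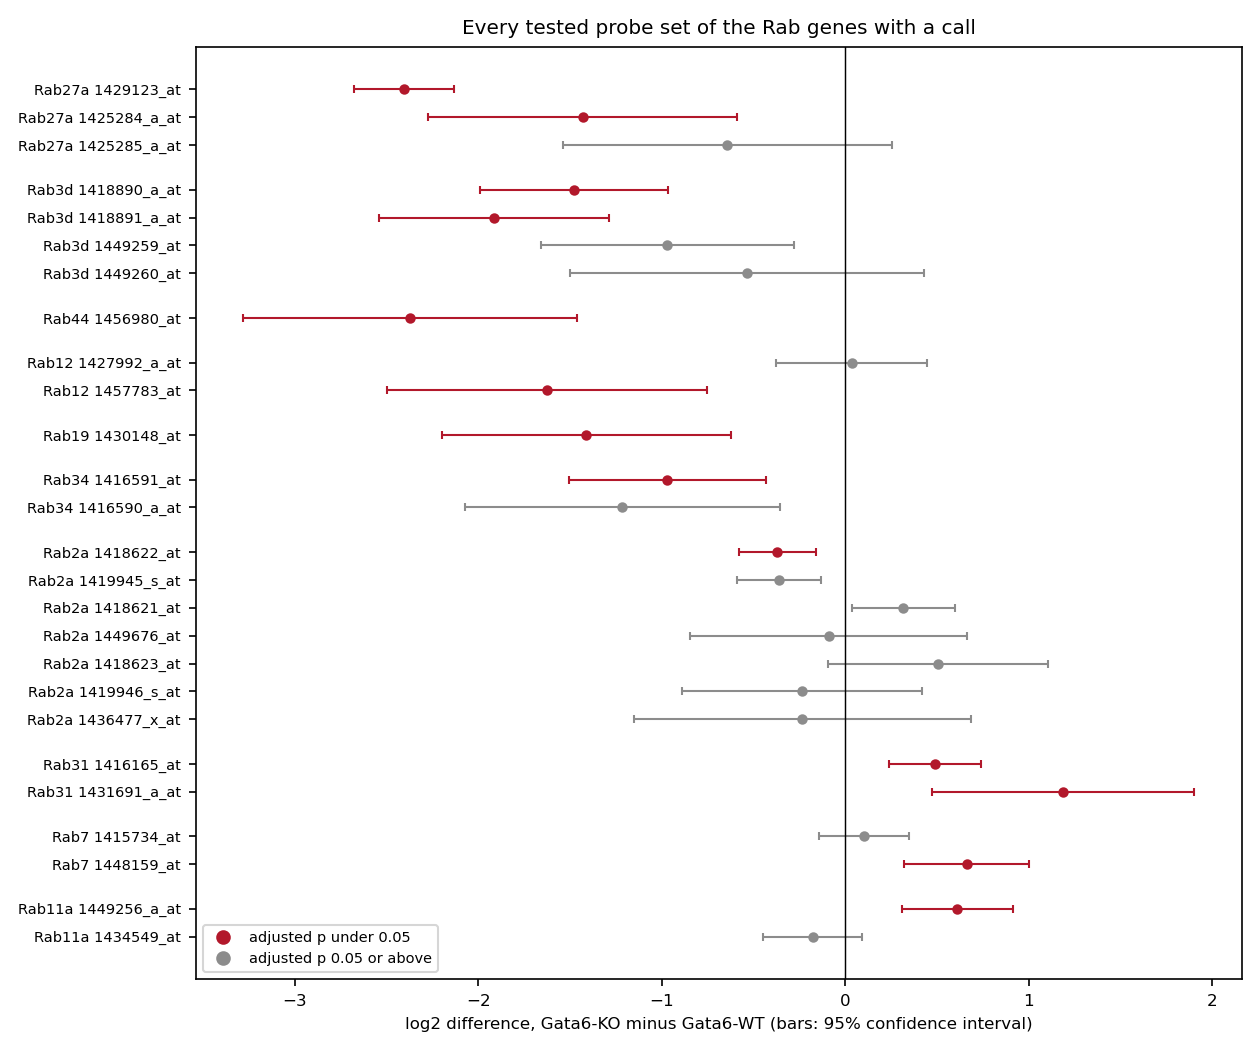
Log2 difference, Gata6-KO minus Gata6-WT (horizontal axis), with its 95% confidence interval for every tested probe set of the 10 Rab genes with a call, red where the adjusted p was under 0.05. The probe sets of Rab27a, Rab3d, Rab34 and Rab31 lie on the same side of 0 within each gene, whereas those of Rab2a, Rab11a and Rab12 lie on both sides.

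The 10 Rab genes with every probe set below the filter were Rab17, Rab25, Rab26, Rab30, Rab3b, Rab3c, Rab40b, Rab4a, Rab6b and Rab9b. Most are known from epithelia, neurons or secretory tissue. Rab4a, a Rab of rapid recycling from early endosomes, had 19.5, 8.31 and 2.53 in Gata6-KO pools, against 94.7, 151 and 82.8 in Gata6-WT pools at 1449048_s_at, so every Gata6-KO pool was lower. Its second probe set had 11.02, 2.22 and 44.7 in Gata6-KO, against 64.3, 67.5 and 49.0 in Gata6-WT. In a fit with no filter the first probe set was called lower (log2 -2.28, limma adjusted p = 0.0149) and the second was not (adjusted p = 0.202). Rab40b had 2.84, 13.9 and 30.9 in Gata6-KO, against 71.6, 40.4 and 96.5 in Gata6-WT (adjusted p = 0.127 in that fit). Its second probe set went the other way, with 4.92, 15.2 and 18.3 in Gata6-KO, against 2.56, 2.57 and 5.05 in Gata6-WT. Rab30, a Golgi Rab, had every Gata6-KO pool above every Gata6-WT pool at both probe sets: 25.0, 22.4 and 27.1 in Gata6-KO, against 15.6, 1.95 and 1.03 in Gata6-WT at 1440325_at, and 4.15, 8.87 and 61.8 in Gata6-KO, against 2.66, 3.61 and 3.11 in Gata6-WT at 1426452_a_at. These signals lie where MAS5 values are least precise, and nothing was read from their sizes.

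Because the pools numbered 1 differed in sex-linked genes, the difference within them and within pools 2 and 3 was set side by side, on the log2(signal + 16) scale and with no test for the single pair. Rab27a (1429123_at) differed by -2.55 between the pools numbered 1 and by -2.33 between the others. For Rab3d the values were -1.26 and -1.59 at 1418890_a_at, and -1.18 and -2.28 at 1418891_a_at. Rab44 differed by -2.18 in the pools numbered 1 and -2.47 in the others, and Rab31 (1416165_at) by 0.55 and 0.46. The direction was the same in both sets of pools for all 13 called Rab probe sets. Their groups did not overlap, so this outcome was fixed in advance and only the sizes carry information. The widest gaps between the sets were at Rab12 (-2.55 in pool 1, -1.17 in the others) and at Rab3d, while Rab11a (0.35, against 0.74) and Rab7 (0.38, against 0.80) differed more in pools 2 and 3.

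Genes that act on Rabs were examined from 4 lists of 117 genes, of which 111 were on the array and 103 tested. By gene 8 were higher and 9 lower in Gata6-KO, which is 16.5% against the background of 13.1%. Among 29 tested exchange factors 4 were higher and 1 lower, among 32 GTPase activating proteins 1 and 2, among 34 effectors 3 and 3, and among 8 genes of prenylation, membrane extraction and Rab modification 0 and 3. The median log2 difference over the 103 genes was 0.00. Each gene is given by its tested probe set of highest mean signal. Among the called genes, those of Rab11fip5 and Tbc1d14 carry an s in the identifier and that of Mical1 an x. These probe sets can therefore also match transcripts of other genes.

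The exchange factor genes held the largest differences in both directions. Dennd4a, an exchange factor for Rab10, had signals of 980, 1177 and 1312 in Gata6-KO, against 5800, 5617 and 5716 in Gata6-WT (log2 -2.30 ± 0.13 SE, limma adjusted p = 1.67e-05). Dennd2a, an exchange factor for Rab9 in human cells, had 1109, 1408 and 1523 in Gata6-KO, against 150, 186 and 235 in Gata6-WT (log2 2.73 ± 0.19 SE, adjusted p = 4.14e-05). Both genes had a second tested probe set with the same direction, at -2.76 for Dennd4a and 1.93 for Dennd2a. Further probe sets of the other called genes acting on Rabs are not described here. Agreement between probe sets is therefore shown for Dennd4a and Dennd2a only. Rin2, an exchange factor for Rab5, had 10449, 10090 and 10728 in Gata6-KO, against 4259, 5663 and 3658 in Gata6-WT (log2 1.22 ± 0.15 SE, adjusted p = 0.000934). None of the Rab5 genes themselves was called. Dennd4c, the relative of Dennd4a that also acts on Rab10, was higher by 0.64 (adjusted p = 0.00854). Rab3il1, an exchange factor for Rab8 in human cells, had 353, 302 and 224 in Gata6-KO, against 16.4, 134 and 64.5 in Gata6-WT (log2 2.06 ± 0.48 SE, adjusted p = 0.024), and its call was kept only without Gata6-WT pool 1 or 2 (0.0528 to 0.0802 in the other fits). Madd, the exchange factor for Rab3 and Rab27, gave -0.15 with no call (adjusted p = 0.416).

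Among GTPase activating proteins, Evi5, described for Rab11 in human cells, had 7834, 7503 and 8512 in Gata6-KO, against 15225, 16128 and 18130 in Gata6-WT (log2 -1.05 ± 0.11 SE, limma adjusted p = 0.000311). Tbc1d9b was also lower (log2 -0.82, adjusted p = 0.0086), and Tbc1d14, which links Rab11 endosomes to autophagy, was higher (log2 0.58, adjusted p = 0.00409). The groups did not overlap in any of the 3. Tbc1d10a, an activating protein for Rab27a among others, had 523, 639 and 494 in Gata6-KO, against 306, 364 and 415 in Gata6-WT, with no call (log2 0.59, adjusted p = 0.0579).

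Among effectors, 3 were called lower, Unc13d, Micall2 and Mical1, and 3 higher, Rab11fip5, Rilpl2 and Rilp. Unc13d, or Munc13-4, the Rab27 effector that primes granules for release, had 223, 269 and 269 in Gata6-KO, against 481, 486 and 700 in Gata6-WT (log2 -1.07 ± 0.19 SE, limma adjusted p = 0.00665). Mlph and Myrip, also Rab27 effectors, were not called (log2 -0.52 and 0.98, adjusted p = 0.315 and 0.315). Nor were the listed effectors Rph3a and Rph3al (log2 0.04 and 0.93, adjusted p = 0.959 and 0.122), and for Rph3al every Gata6-KO pool lay above every Gata6-WT pool. Micall2, a Rab8 and Rab13 effector, had 63.8, 78.2 and 37.1 in Gata6-KO, against 289.9, 177 and 337 in Gata6-WT (log2 -1.90 ± 0.31 SE, adjusted p = 0.00476). Mical1, an actin-oxidizing Rab effector, was lower by a log2 value of -1.89 (adjusted p = 0.0271), a call kept only without Gata6-KO pool 1 (0.0578 to 0.0805 otherwise).

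Rab11fip5, an effector that ties Rab11 vesicles to motors, had 15136, 15184 and 14616 in Gata6-KO, against 7810, 9592 and 8186 in Gata6-WT (log2 0.82 ± 0.11 SE, limma adjusted p = 0.00131). Rilpl2, an effector that binds phosphorylated Rab8 and Rab10, had 11620, 13166 and 10903 in Gata6-KO, against 7111, 6307 and 6847 in Gata6-WT (log2 0.81 ± 0.11 SE, adjusted p = 0.00148). Rilp, the Rab7 effector that recruits dynein to late endosomes and was named here after its values were seen, had 694, 751 and 705 in Gata6-KO, against 350.0, 471 and 395 in Gata6-WT (log2 0.81 ± 0.15 SE, adjusted p = 0.009). For these 3 genes every Gata6-KO pool lay above every Gata6-WT pool. The Rab5 effector Eea1, an endosome tether, gave 0.48 (adjusted p = 0.102) with no call.

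Of the 8 tested genes of prenylation, extraction and Rab modification, 3 were called (37.5%), all lower, against a background of 7.46% lower. This share describes the list and is not a test. Lrrk2, the kinase that phosphorylates Rab8, Rab10, Rab12 and others, had 304, 276 and 257 in Gata6-KO, against 1180, 972 and 1201 in Gata6-WT (log2 -1.94 ± 0.15 SE, limma adjusted p = 6.33e-05). Ppm1h, the phosphatase that removes these phosphates in human cells, had 1613, 1911 and 1688 in Gata6-KO, against 4766, 4066 and 4184 in Gata6-WT (log2 -1.31 ± 0.12 SE, adjusted p = 0.000143). Rabac1, a prenylated Rab acceptor, had 3431, 3434 and 3480 in Gata6-KO, against 6307, 6537 and 6587 in Gata6-WT (log2 -0.91 ± 0.09 SE, adjusted p = 0.000321). The kinase and the phosphatase that act on the same Rabs were thus both lower. Of the substrates named, Rab8a and Rab10 were not called, and Rab12 was called lower at its low-signal probe set only. The general machinery was not called either: the prenyl transferase subunits Rabggta and Rabggtb both gave -0.20, the escort protein Chm -0.14, and the extraction factor Gdi2 0.27 (adjusted p = 0.203).

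**Figure D4:**
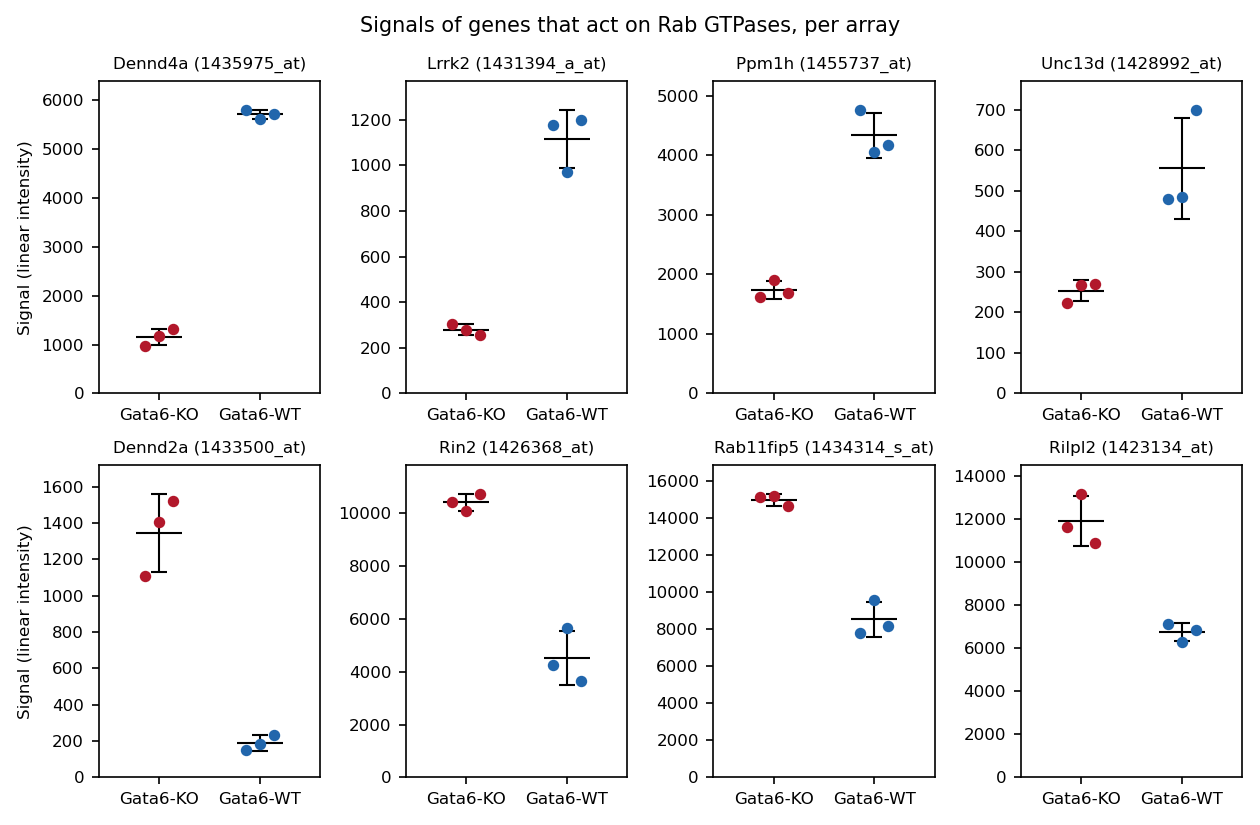
MAS5 signal (linear intensity, vertical axis from 0) of 8 genes that act on Rabs in each Gata6-KO pool (red, left) and Gata6-WT pool (blue, right), with lines for the mean and bars for the SD of 3 arrays. Dennd4a lies between 980 and 1312 in Gata6-KO and between 5617 and 5800 in Gata6-WT, Dennd2a between 1109 and 1523 in Gata6-KO and between 150 and 235 in Gata6-WT.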

How the data were processed

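Total RNA of sorted macrophage pools was measured on 6 arrays. The deposited values are linear intensities, 1 per probe set and array, for which the tools MAS5 and affy are named, without version, per the submitters' processing notes; their trimmed mean was the same on all arrays. MAS5 subtracts mismatch signal, which leaves low intensities noisy. Symbols came from the array's annotation table.

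Signals were converted to log2(signal + 16). After removal of 64 control probe sets, those with a mean above the 40th percentile (log2 5.99) were tested, 27022 in all, with limma 3.58.1 in R 4.3.3 (lmFit, eBayes with trend, two-sided) and Benjamini-Hochberg adjustment over them; called means an adjusted p under 0.05. Differences understate the change of low signals. Lacking a table of amino acid sequences, only promoter windows are shown. Per the labels the pools are biological replicates; p-values measure the spread between these pools. No 2 arrays held identical values, and the number of arrays limits the precision.

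The members, role groups and gene lists were chosen with earlier results of these data known, and the groups and lists come from textbook knowledge. Named were each Gata6 probe set, each Rab gene with a call, the 3 uncalled with the smallest p, up to 6 of highest signal, Rab genes with probe sets that differ in call, relatives of called Rabs, up to 5 called genes per list of genes acting on Rabs, and any other Rab with its value. The alternatives were other pseudocounts (1, 64), filters (none, 60th percentile), scalings, no trend, array weights, a replicate block, omission of arrays, an adjusted p under 0.01 and averaging over the probe sets of each gene. Samples of the same number were not treated as paired. Plots were made in Python 3.11.15 with matplotlib 3.10.9.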

Additional observations from a re-analysis of the deposited data

How the results depend on the processing

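The directions of the called Rab probe sets and of the called genes acting on Rabs held under all alternatives run. At all of these the groups did not overlap, so in the fits that left out arrays the direction was fixed in advance. Of the 13 Rab calls, 4 (Rab27a 1429123_at, both Rab3d probe sets and Rab44) passed in every alternative that tested them; Rab44 was not tested with the filter at the 60th percentile. Of the 17 called genes acting on Rabs, 12 passed in every alternative that tested them; Micall2, among the 12, was not tested with that filter. With no filter 8 of the 13 Rab calls remained. Leaving out 1 array gave 1 to 4 Rab probe sets higher (4 with all arrays) and 4 to 7 lower (9), 1 to 3 Rab genes higher (2) and 3 to 5 lower (6), 7 to 8 genes acting on Rabs higher (8) and 8 to 9 lower (9), and 2 lower Gata6 probe sets. Without the mean-variance trend 0 Rab probe sets and 0 Rab genes were higher and 1 Gata6 probe set was lower. With an adjusted p under 0.01, 0 Rab probe sets were higher and 4 lower, 0 Rab genes higher and 3 lower, and 1 Gata6 probe set was lower. With the pools numbered 2 and 3 alone, 2 Rab probe sets were higher and 5 lower, 1 Rab gene was higher and 3 lower, and 5 genes acting on Rabs were higher. Median scaling left 1 Rab gene higher. With fewer arrays there are fewer degrees of freedom; for the other settings the cause was not tested. The uncalled Gata6 probe set 1425463_at turned to 0.0746 with array weights, and ran from -0.17 to 0.18 with 1 array left out (positive without Gata6-KO pool 2 or Gata6-WT pool 3). Same-numbered pools deviated together only weakly (r = 0.128, 0.0743 and 0.0741, each its highest), and with the replicate number as a block 12 Rab probe sets were called, 4 higher and 8 lower, all among the 13, the one lost being Rab2a; Rab genes were then 2 higher and 5 lower, and genes acting on Rabs 8 higher and 9 lower. The total over all probe sets was 2916 (1384 higher, 1532 lower), 2819 with median scaling (1112 higher, 1707 lower), 1459 without the trend and 1654 with the pools numbered 2 and 3 alone. Signals near the filter, as for Rab44, Rab12, Rab34 and Rab4a, are where MAS5 background limits precision most.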
